A study of Mus musculus with 12 samples.

Results

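The potassium channel genes described here are the genes whose symbol starts with Kcn followed by letters and a number, in expression tables of mouse brain tissue with and without a knockout (KO) of Dpy30. Of 82 such genes in both tables, 2 were left out by name (Kcnj10 and Kcnj13, channels of astrocytes and of the choroid plexus). Another 11 had a mean under 0.5 FPKM in both tables, and 69 of the tables' 17990 genes remained. FPKM are fragments mapped to a gene, scaled by transcript length and library size, here with the authors' TMM scaling between libraries. Kcne2, which the rule also leaves out, is not analysed here. Of the 69 members, 68 encode proteins and 1, Kcnmb4os2, is an antisense RNA gene. In the dentate gyrus 68 members reached the 0.5 FPKM needed for a test, and in the subventricular zone all 69 did. The members just above the threshold were Kcnmb2 at 0.882, Kcnk6 at 0.892 and Kcnb2 at 1.36 FPKM in the table with the higher mean, and the genes just below it were Kcnd3os at 0.454, Kcnh6 at 0.429 and Kcne4 at 0.419 FPKM.

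Potassium channels let potassium leave the cell, which sets the resting potential and ends the action potential. Voltage-gated channels open on depolarisation, inward rectifiers and two-pore channels conduct near rest, and calcium- or sodium-activated channels follow the activity of the cell. Auxiliary subunits change how many channels reach the membrane and how fast they open and close. In the hippocampus and striatum the mix of these subunits differs between principal neurons, interneurons and glia.

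Bulk RNA was sequenced from 12 libraries, 3 in each of 4 groups: dentate gyrus (DG) and subventricular zone (SVZ) tissue, holding neural stem and progenitor cells and their neighbours, of control and KO mice. Controls had the genotype hGFAP/+;Dpy30F/+ and KO mice hGFAP/+;Dpy30F/-, so every group carried hGFAP and 1 Dpy30F allele, and the KO differed by a Dpy30 allele written as lost in all cells. The labels do not write out Cre; as background, the mouse line known by this name expresses Cre from the human GFAP promoter in radial glia, so that neurons and glia that descend from them are recombined too. The labels give no age, sex or treatment, nor do they say whether the 3 libraries of a group came from separate animals, so p-values measure the spread between libraries, which may be technical.

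Dpy30 encodes a core subunit of the histone H3 lysine methyltransferase complexes. Its level in the DG was 8.43, 8.38 and 10.1 FPKM in control libraries a, b and c, and 6.22, 6.89 and 5.68 FPKM in the KO libraries. In the SVZ it was 7.73, 8.25 and 9.43 FPKM in the controls, 8.83 FPKM in the library labelled KO a, and 5.04 and 4.87 FPKM in the other KO libraries, b and c. The DG groups did not overlap (log2 fold change -0.46, SE 0.11, limma adjusted p = 0.073; exact two-sided permutation p = 0.1, the smallest that 3 against 3 allows). In the SVZ the library labelled KO a lay among the controls (-0.42, SE 0.20, limma adjusted p = 0.42; exact two-sided permutation p = 0.3), and leaving it out gave -0.67 (SE 0.12, limma adjusted p = 0.023). SVZ log2 fold changes and counts of members are therefore given with and without the library labelled KO a.

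Other features of the libraries also differed. Depth, as the reads that 1 FPKM is worth in a transcript of 1 kb, was 26.7 to 42.3 in DG controls, 48.5 to 65.9 in DG KO libraries, 37.0 to 46.1 in SVZ controls and 34.1 to 50.2 in SVZ KO libraries. Prox1, a defining transcription factor of dentate granule neurons, was at 2.30, 0.963 and 10.7 FPKM in the DG controls and at 1.93, 1.498 and 1.19 FPKM in the DG KO libraries, so that 1 of 6 DG libraries stood out for it. The 8 dentate granule markers summed to 52.3, 35.2 and 48.2 FPKM in the DG controls. In the DG KO libraries they summed to 28.9, 26.1 and 29.2 FPKM, with 4 of 6 tested negative and a median log2 fold change of -0.47. Hippocampal CA pyramidal markers summed to 70.2, 50.9 and 96.8 FPKM in the DG controls and to 52.7, 46.9 and 50.3 FPKM in the DG KO libraries. Of these, 5 of 6 were negative, with a median of -0.63, and 0 genes of either list passed limma's adjusted threshold in the DG. Markers of neurons of the striatum, which lies beside the SVZ and is not part of the hippocampus, summed to 66.7, 708 and 34.5 FPKM in the DG controls and to 54.6, 329 and 690 FPKM in the DG KO libraries. Markers of myelinating oligodendrocytes summed to 247, 2440 and 731 FPKM in the DG controls and to 133, 133 and 138 FPKM in the DG KO libraries. In the SVZ this myelin sum was 6152, 3043 and 5487 FPKM in the controls, 3992 FPKM in the library labelled KO a and 282 and 214 FPKM in the other KO libraries. Astrocyte markers summed to 524 to 693 FPKM in the DG controls and 369 to 417 FPKM in the DG KO libraries, with 6 of 9 negative and 1, Aldoc, lower by limma (-1.29, SE 0.11, adjusted p = 0.028). In the SVZ the astrocyte sum was 854 to 1143 FPKM in the controls, 800.1 FPKM in the library labelled KO a and 492 and 524 FPKM in the other KO libraries. In the DG 0 of 8 striatal markers were negative (median log2 fold change 0.82), and 0 of 5 tested ependymal ones (0.67). Progenitor and neuroblast markers summed to 51.3 to 95.8 FPKM in DG controls and 62.1 to 72.4 FPKM in DG KO libraries. Of these, 3 of 8 were negative (0.31). Of 7 microglia and 7 endothelial and pericyte markers 2 each were negative (0.10 and 0.09). Of 8 oligodendrocyte precursor markers 4 were negative (0.0015), and 2 were lower by limma. No marker of any list was at 0 in any library.

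Levels of RNA are given first, and they do not show which channels the cells assemble or use. In DG controls the highest mean was that of Kcnip2, the calcium-binding KChIP subunit of Kv4 channels, at 51.6 ± 15 FPKM (SD, n = 3), followed by Kcnab2, a cytoplasmic beta subunit of Kv1 channels, at 49.4 ± 12 FPKM. Kcnh3, an ether-a-go-go-like channel of the forebrain, was at 42.4 FPKM, and Kcnmb4, the neuronal beta subunit of the BK channel, at 41.8 FPKM. These 4 means lie within each other's spread for neighbours in the order. In SVZ controls the 5 highest means were those of Kcnab2 at 57.5, Kcnip2 at 46.2, Kcnj4 at 42.4, Kcnk1 at 40.8 and Kcnh3 at 39.1 FPKM. Kcnj4, an inward rectifier of forebrain neurons, and Kcnk1, the two-pore channel TWIK, stood at 33.9 and 25.1 FPKM in DG controls. Levels were not tested between the tissues, whose tables were normalized separately.

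**Figure D1:**
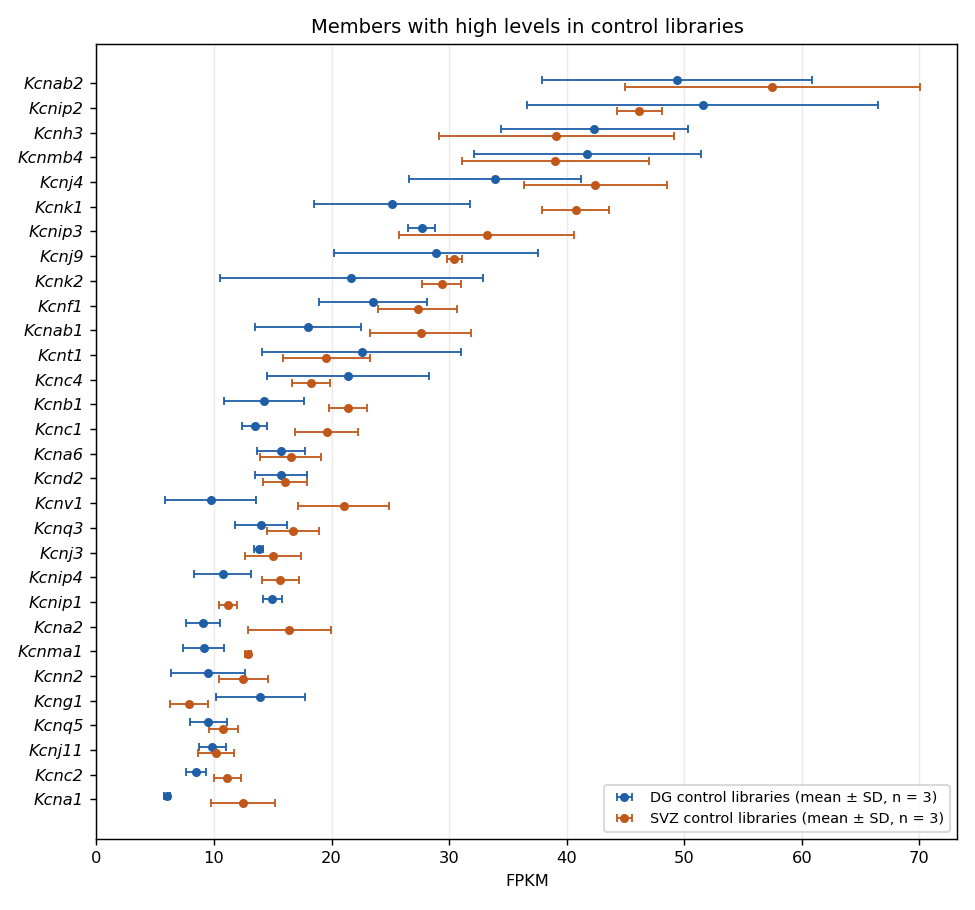
Mean FPKM (horizontal axis) of members with high levels in control libraries, DG in blue and SVZ in orange, with bars for the SD over 3 libraries. Kcnab2 and Kcnip2 lead in both tissues, at 49.4 and 51.6 FPKM in the DG and 57.5 and 46.2 FPKM in the SVZ.

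In the DG, most potassium channel genes were lower in KO than in control libraries, by amounts that for all but 1 did not pass the test. The median log2 fold change of the 68 tested members was -0.33 (quartiles -0.59 and -0.11), while that of all 15454 genes tested was 0.09. The log2 fold change was below 0 in 53 of 68 members (77.9%), against 34.7% of all genes. Control and KO libraries did not overlap in 27 members, with the KO libraries lower in 25 (36.8%) and higher in 2, against 33.7% of all genes, 7.82% with KO lower and 25.9% with KO higher. By limma with Benjamini-Hochberg adjustment 1 member, Kcnj11, passed the threshold of 0.05, against 0.699% of all genes (0.362% lower and 0.336% higher). At an unadjusted limma p under 0.05 there were 25 members lower and 2 higher, against 6.94% and 19.5% of all genes.

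Markers of mature neurons were also lower in these libraries. All 12 on the list had a negative log2 fold change in the DG, with a median of -0.67, and 2 of them fell by limma, Eno2 (-0.91, SE 0.07, adjusted p = 0.028) and Grin1 (-0.65, SE 0.09, adjusted p = 0.048). Their summed level was 2316 to 2586 FPKM in the controls and 1246 to 1784 FPKM in the KO libraries, and the summed level of the 69 channel genes was 747 to 882 FPKM in the controls and 619 to 634 FPKM in the KO libraries. In bulk tissue, fewer cells of a type and less RNA per cell cannot be told apart. The part of neuronal or astrocyte content in the channel values was not tested.

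**Figure D2:**
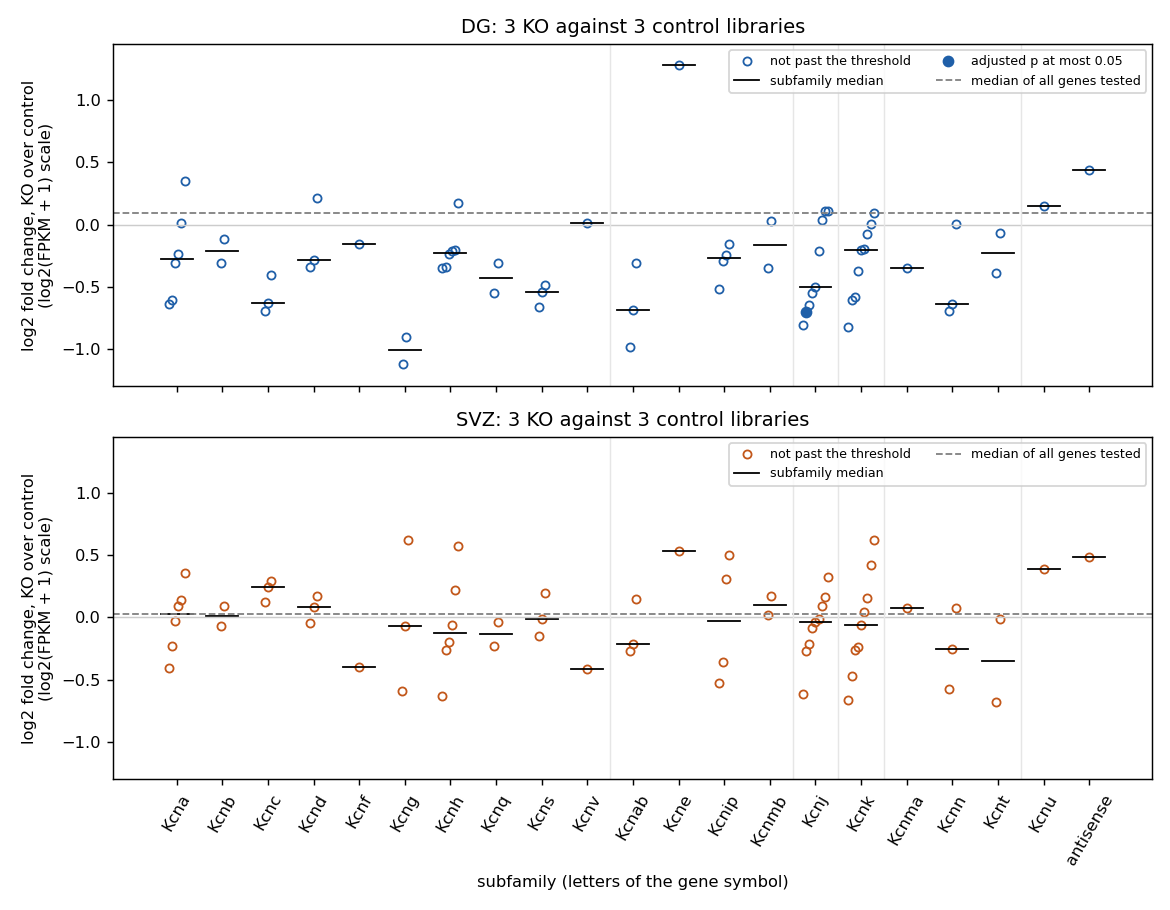
Log2 fold change (vertical axis, KO over control, log2(FPKM + 1) scale) of members by subfamily, DG above and SVZ below; points are genes, short lines the medians of the points drawn and the dashed line the median of all genes tested. In the DG the points lie mostly below the dashed line at 0.09, with Kcnj11 as the filled point, and in the SVZ they spread to both sides of 0.03.

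Among the voltage-gated pore-forming subunits, 27 of 32 tested in the DG had a negative log2 fold change, with a median of -0.34, against 34.7% of all genes. The libraries did not overlap in 13, all lower in KO, against 7.82% of all genes, and 0 passed the adjusted threshold. The Kcnc subfamily encodes the Kv3 channels, which repolarise fast-spiking neurons. Kcnc1 was at 14.3, 13.9 and 12.3 FPKM in DG controls and at 11.5, 9.53 and 8.81 FPKM in DG KO libraries (log2 fold change -0.41, SE 0.11, limma adjusted p = 0.092). Kcnc4 was at 29.3, 17.7 and 17.2 FPKM against 16.8, 12.8 and 8.94 FPKM (-0.69, SE 0.27, limma adjusted p = 0.17). In both, every KO library lay below every control, by a narrow margin in Kcnc4. In Kcnc2, KO a at 8.14 FPKM lay within the control range of 7.46 to 8.98 FPKM, while KO b and KO c were at 4.97 and 3.12 FPKM. Beside these genes, all 6 markers of GABAergic interneurons had a negative DG log2 fold change, with a median of -0.43 and 0 past the adjusted threshold. They summed to 394, 286 and 322 FPKM in DG controls and to 345, 216 and 216 FPKM in KO libraries, and their part in the Kcnc values was not tested.

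The windows at the start of Kcnc1, Kcnc4, Kcns1 and Kcne1l are shown because the first 3 were lower in every DG KO library than in every control and the last was higher there. Each runs 5′ to 3′ on the strand of the gene from 250 bases before to 50 after the RefSeq start on GRCm38.p6, with CpG dinucleotides in capitals. Their positions are chr7:46396218-46396517 (plus strand), chr3:107458849-107459148, chr2:164171064-164171363 and chrX:142306149-142306448 (minus strand). The RefSeq start need not be that of the transcripts in the tables.
Kcnc1: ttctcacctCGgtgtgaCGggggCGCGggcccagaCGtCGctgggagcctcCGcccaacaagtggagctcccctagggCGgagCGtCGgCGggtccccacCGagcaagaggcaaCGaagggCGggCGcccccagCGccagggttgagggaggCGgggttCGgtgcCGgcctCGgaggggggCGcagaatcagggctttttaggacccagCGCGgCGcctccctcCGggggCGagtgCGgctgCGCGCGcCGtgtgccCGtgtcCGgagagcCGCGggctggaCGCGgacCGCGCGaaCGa
Kcnc4: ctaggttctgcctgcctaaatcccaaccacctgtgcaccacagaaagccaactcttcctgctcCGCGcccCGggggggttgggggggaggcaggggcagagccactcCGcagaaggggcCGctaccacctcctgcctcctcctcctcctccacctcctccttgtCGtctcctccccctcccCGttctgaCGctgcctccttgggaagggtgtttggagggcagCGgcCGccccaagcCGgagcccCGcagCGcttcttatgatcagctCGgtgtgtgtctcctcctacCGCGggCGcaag
Kcns1: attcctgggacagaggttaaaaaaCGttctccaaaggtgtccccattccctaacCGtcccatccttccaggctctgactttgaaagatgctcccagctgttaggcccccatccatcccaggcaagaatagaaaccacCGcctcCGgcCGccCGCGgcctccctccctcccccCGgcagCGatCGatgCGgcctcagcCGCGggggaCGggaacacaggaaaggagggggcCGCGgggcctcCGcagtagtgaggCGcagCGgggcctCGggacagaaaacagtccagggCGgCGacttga
Kcne1l: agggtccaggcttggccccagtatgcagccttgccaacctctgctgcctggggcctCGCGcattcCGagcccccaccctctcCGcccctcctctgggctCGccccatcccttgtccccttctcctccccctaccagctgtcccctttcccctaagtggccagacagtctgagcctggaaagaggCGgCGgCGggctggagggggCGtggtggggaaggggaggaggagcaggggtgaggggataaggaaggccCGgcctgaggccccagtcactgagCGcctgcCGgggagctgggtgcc
They hold 41, 17, 22 and 12 CpG. All 4 hold GGGCGG on either strand, a motif that contains a CpG itself, and none holds TATAAA.

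Promoter windows of 48 of the 69 members were in the RefSeq table, as 71 windows of 300 bases. Their median CpG count was 10 (range 1 to 48), against 7 over all 32851 windows, and 50.7% held at least 10 CpG against 43.5%. GGGCGG stood on either strand of 49.3% of the members' windows and of 35.7% of all windows. TATAAA stood on either strand of 4.23% and 13.6%. The 32851 windows were not limited to genes expressed in these tissues, whereas members had to reach 0.5 FPKM. A gene also counts once for each of its windows, and 35 of the 48 members had 1. Whether these shares differ from those of other expressed genes was not tested. The Kcnc2 windows, at 4 starts, held 3 to 6 CpG, and those of Kcnc1 and Kcnc4 held 41 and 17. A relation of CpG count to log2 fold change was not tested.

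The Kcns genes encode subunits that form no channel alone and modify Kv2 channels. All 3 were without overlap in the DG. Kcns1 was at 6.64, 5.81 and 5.31 FPKM in controls and at 3.72, 3.61 and 2.78 FPKM in KO libraries (-0.67, SE 0.12, limma adjusted p = 0.058). Kcns2 was at 3.59, 3.79 and 3.11 FPKM against 2.01, 2.11 and 2.13 FPKM (-0.54, SE 0.09, limma adjusted p = 0.055). The KO values of Kcns2 lay close together, and all were below its lowest control. Kcns3 was lower in level, at 1.14 to 1.92 FPKM in controls and 0.530 to 0.959 FPKM in KO libraries.

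Other silent subunits, of the Kcng subfamily, differed in how far single libraries set the mean. Kcng1 was at 17.6, 10.1 and 14.1 FPKM in DG controls and at 7.04, 6.00 and 7.51 FPKM in KO libraries, without overlap (-0.90, SE 0.19, limma adjusted p = 0.066). Kcng2, named after its values were seen, was at 5.80, 0.978 and 5.64 FPKM in DG controls and at 1.21, 1.03 and 0.941 FPKM in KO libraries. Control b lay among the KO libraries, and without it the log2 fold change of Kcng2 moved from -1.12 (SE 0.46, limma adjusted p = 0.19) to -1.71 (SE 0.10, limma adjusted p = 0.030). Control b is the library with the highest striatal and myelin marker sums of the DG. Whether its tissue content bears on Kcng2 was not tested. Kcng4, at a DG mean under the threshold, was at 0.476, 0.777 and 0.871 FPKM in controls and 0.275, 0.135 and 0.157 FPKM in KO libraries, and was not tested there.

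The Kcna genes encode Kv1 channels of axons. Kcna1 was at 5.80, 5.95 and 6.27 FPKM in DG controls and at 4.41, 3.41 and 3.09 FPKM in KO libraries (-0.61, SE 0.12, limma adjusted p = 0.062). Kcna2 was at 7.63, 10.5 and 9.04 FPKM against 6.46, 4.69 and 5.18 FPKM (-0.64, SE 0.15, limma adjusted p = 0.071). In both, every KO library lay below every control. Kcna5 and Kcna6 flank Kcna1 on chromosome 6 at 104984 and 61944 bases, and had log2 fold changes of 0.35 (SE 0.25) and -0.31 (SE 0.15) with overlapping groups; no difference between neighbours was tested. Of the 4 transcripts of Kcna6, Kcna6-201 and Kcna6-204 were lower in every DG KO library than in every control, the latter at 6.36, 6.25 and 4.75 FPKM against 4.41, 4.03 and 3.11 FPKM, and the others overlapped. Kcna3, 63075 bases from Kcna2 on chromosome 3, had one of 0.02 (SE 0.29). Kcnq5, a Kv7 channel of the M-current, was at 7.69, 10.6 and 10.2 FPKM in DG controls and at 7.20, 4.75 and 6.63 FPKM in KO libraries, without overlap (-0.55, SE 0.17, limma adjusted p = 0.11).

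Other voltage-gated members had overlapping groups in the DG. Kcnv1, a silent subunit, had a log2 fold change of 0.01 (SE 0.30), and Kcnf1, another, one of -0.16 (SE 0.21). Kcnd2, the A-type Kv4 channel of dendrites, stood at -0.29 (SE 0.16), close to the median of the voltage-gated members. Kcnh4, an ether-a-go-go-like channel, was at 1.87, 5.23 and 0.989 FPKM in DG controls and at 1.2, 3.05 and 4.74 FPKM in KO libraries. Its 3 high libraries, control b, KO b and KO c, are the 3 with the high striatal marker sums. The striatal part in this value was not tested.

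Among the 9 inward rectifiers, 6 were lower in every DG KO library than in every control, against 7.82% of all genes, and the median log2 fold change was -0.50. Kcnj11 encodes the pore of the ATP-sensitive potassium channel, which ties excitability to metabolism. It was at 8.52, 10.6 and 10.5 FPKM in DG controls and at 5.68, 5.35 and 5.89 FPKM in DG KO libraries. The KO libraries lay close together and below all controls, and the level fell 1.75-fold (control over KO; log2 fold change -0.70, SE 0.10, limma adjusted p = 0.048). This call rests on a narrow margin: the adjusted p was 0.059 to 0.21 when any 1 library was left out and 0.038 to 0.078 under the other settings, past the threshold in 4 of 9 of these. Abcc8, the sulfonylurea receptor that pairs with Kcnj11 and lies 3758 bases away on the same strand of chromosome 7, was at 4.10, 5.65 and 7.73 FPKM in controls and 3.52, 2.55 and 3.11 FPKM in KO libraries, without overlap (-0.72, SE 0.21, limma adjusted p = 0.096). The other such pair, Kcnj8 and Abcc9, known for vascular cells, lie 16247 bases apart on chromosome 6 and had DG log2 fold changes of 0.11 (SE 0.16) and 0.02 (SE 0.13).

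Kcnj3, Kcnj6 and Kcnj9 encode GIRK subunits, which G-protein-coupled receptors open. All 3 were lower in every DG KO library than in every control. Kcnj3 was at 14.2, 13.4 and 13.8 FPKM in controls and at 10.8, 6.77 and 5.53 FPKM in KO libraries (-0.81, SE 0.21, limma adjusted p = 0.083). Kcnj6 was at 4.10, 4.07 and 4.32 FPKM against 3.04, 2.85 and 1.83 FPKM (-0.55, SE 0.15, limma adjusted p = 0.089). For both, the controls lay close together and the KO libraries spread out, with KO c lowest. Of the Kir2 channels, Kcnj12 was lower without overlap (-0.50, SE 0.12, limma adjusted p = 0.075), while the DG log2 fold changes of Kcnj4 and Kcnj2 were 0.04 (SE 0.16) and 0.11 (SE 0.26).

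The two-pore channels had a DG median of -0.21, with 7 of 9 negative and 1, Kcnk4, without overlap. Of all genes tested in the DG, 34.7% were negative and 7.82% were without overlap with KO lower, so the count without overlap lay near that share. Kcnk4, the mechanosensitive channel TRAAK, was at 3.73, 6.46 and 3.75 FPKM in controls and 1.77, 2.86 and 1.82 FPKM in KO libraries (-0.83, SE 0.22, limma adjusted p = 0.089). Kcnk2, its relative TREK, was at 13.7, 34.5 and 16.9 FPKM against 8.33, 20.01 and 29.8 FPKM, with the same 3 high libraries as Kcnh4 (-0.21, SE 0.50). Kcnk1, with the highest control mean of the class in both tissues, had a lower DG KO mean than Kcnk2, 16.3 against 19.4 FPKM, and stood at -0.58 (SE 0.24, limma adjusted p = 0.18) for its log2 fold change. Of the 6 calcium- or sodium-activated channels, 5 were negative, with a median of -0.37. Kcnn1, a small-conductance calcium-activated channel behind the afterhyperpolarisation, was at 4.53, 5.68 and 6.96 FPKM in controls and 3.17, 3.00 and 3.19 FPKM in KO libraries, without overlap (-0.69, SE 0.14, limma adjusted p = 0.063). Kcnma1, the BK channel, overlapped (-0.35, SE 0.19), as did the sodium-activated Kcnt1 (-0.06, SE 0.37). Kcnu1, a channel known from sperm, was low in level, at DG means of 1.52 FPKM in controls and 1.76 FPKM in KO libraries.

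The auxiliary subunits held the member with the largest positive log2 fold change of the 68 tested in the DG. Kcne1l, also known as Kcne5, encodes a single-pass membrane subunit that can suppress Kv7 channels. It was at 6.10, 9.75 and 8.53 FPKM in DG controls and at 13.1, 23.0 and 29.7 FPKM in DG KO libraries. Every KO library lay above every control, at a KO mean 2.70 times the control mean (1.28, SE 0.30, limma adjusted p = 0.072). The other 9 auxiliary genes lay between -0.99 and 0.03, with Kcnab3 lowest at 3.31, 7.67 and 4.94 FPKM against 1.95, 1.70 and 2.59 FPKM (limma adjusted p = 0.085) and Kcnab2 at 40.5 to 62.4 FPKM against 28.0 to 33.5 FPKM (-0.68, SE 0.17, limma adjusted p = 0.077). The other member above all controls was Kcnmb4os2, at 3.89, 5.93 and 5.61 FPKM against 7.80, 7.63 and 6.38 FPKM (0.44, SE 0.15, limma adjusted p = 0.14). It overlaps Kcnmb4 on the opposite strand of chromosome 10, and since no source used here gives the strand setting of the counting, reads of the 2 genes cannot be told apart; Kcnmb4 itself had a log2 fold change of 0.03 (SE 0.18).

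**Figure D3:**
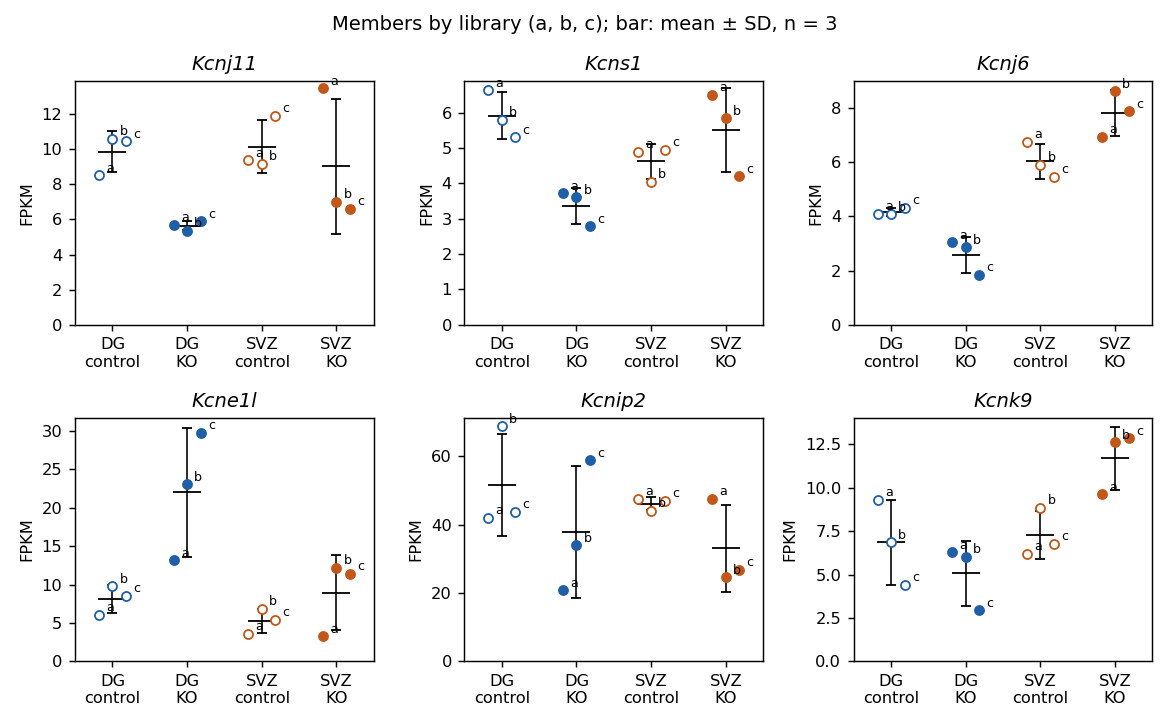
FPKM (vertical axis, starting at 0) of 6 members in each library, controls open and KO filled, with bars for the mean and SD of 3 libraries. Kcnj11 and Kcns1 separate in the DG, Kcnj6 separates in opposite directions in the 2 tissues, and in the SVZ the library labelled KO a lies apart from the other KO libraries, at 3.29 FPKM for Kcne1l and 47.6 FPKM for Kcnip2.

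In the SVZ with all 6 libraries, 0 of 69 members passed limma's adjusted threshold, against 0.0066% of all 15159 genes. The median log2 fold change was -0.02 (quartiles -0.24 and 0.17), while that of all genes was 0.03. At an unadjusted limma p under 0.05 there were 10 members higher and 6 lower, 23.2% together, against 12.6% of all genes (5.79% higher and 6.84% lower). Control and KO libraries did not overlap in 12 members, 8 higher and 4 lower in KO, 17.4% against 15.6% of all genes (7.86% higher and 7.78% lower). The log2 fold change was below 0 in 37 members (53.6%), against 44.5% of all genes. Among the smallest p-values were those of Kcnk9, Kcnn2, Kcng4, Kcnip1, Kcnj2 and Kcnk2, each with an adjusted limma p of 0.37. Kcnk3, the TASK channel related to Kcnk9, stood at 0.42 (SE 0.16, limma adjusted p = 0.37) for its log2 fold change, and at 0.41 (SE 0.18, adjusted p = 0.19) without the library labelled KO a.

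Without the library labelled KO a, 16 of 69 members passed the threshold in the SVZ, 10 lower and 6 higher, 23.2% against 8.69% of all genes (4.48% lower and 4.21% higher). The median log2 fold change was then -0.04, against 0.06 over all genes, and 39 members (56.5%) were below 0 against 41.6% of all genes. Groups did not overlap in 41 members, 15 higher and 26 lower in KO, 59.4% against 49.9% of all genes (30.8% higher and 19.1% lower). At an unadjusted limma p under 0.05 there were 11 higher and 19 lower, 43.5% against 27.4% of all genes (15.6% and 11.8%). Since 2 KO libraries were then set against 3 controls, each value rests on few libraries.

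The members that fell in the SVZ without the library labelled KO a were led by Kcnip2, the KChIP subunit. It was at 47.5, 44.0 and 47.0 FPKM in controls, 47.6 FPKM in the library labelled KO a, and 24.7 and 26.9 FPKM in KO b and c (-0.82, SE 0.10, limma adjusted p = 0.0080; with all libraries -0.53, SE 0.22, adjusted p = 0.39). The library labelled KO a lay at the top of the controls, while the other KO libraries were near a common lower level. Kcnk2 was at 28.9, 31.2 and 28.0 FPKM in controls, 27.0 FPKM in the library labelled KO a, and 13.1 and 16.8 FPKM in the others (-0.94, SE 0.13, limma adjusted p = 0.011; with all libraries -0.67, SE 0.22, adjusted p = 0.37). Kcnh4 was at 2.83, 3.17 and 3.34 FPKM, then 2.98 FPKM, then 1.01 and 1.34 FPKM (-0.92, SE 0.12, limma adjusted p = 0.0097; with all libraries -0.63, SE 0.24, adjusted p = 0.37). Kcnt2, a sodium-activated channel, was at 5.53, 5.76 and 3.60 FPKM, then 5.64 FPKM, then 1.62 and 1.83 FPKM (-1.11, SE 0.18, limma adjusted p = 0.018; with all libraries -0.68, SE 0.34, adjusted p = 0.43). In these 3 genes as well, the library labelled KO a lay within the control range or just below it. Kcnk4, Kcnh5, Kcng1, Kcnip4, Kcnn2 and Kcnj2 also fell, by 0.53 to 0.95 on the log2 scale with limma adjusted p of 0.017 to 0.050. With all libraries the log2 fold changes of these 6 lay between -0.61 and -0.20, with limma adjusted p of 0.37 to 0.77.

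Beside these genes, markers of striatal neurons, myelinating oligodendrocytes, astrocytes and microglia were lower in the same libraries. The striatal list summed to 472 to 624 FPKM in SVZ controls, 425 FPKM in the library labelled KO a and 370 and 376 FPKM in the remaining KO libraries, and 6 of its 8 genes fell by limma without the library labelled KO a. In the DG, where the striatal sum ranged from 34.5 to 708 FPKM across libraries, Kcnk2 and Kcnh4 were highest in the 3 libraries with the highest sums, and Kcnip2 was highest in control b at 68.8 FPKM and KO c at 58.9 FPKM. In DG KO b, the remaining library with a high striatal sum at 329 FPKM, Kcnip2 was at 34.0 FPKM. That was below DG controls a and c, at 42.0 and 43.8 FPKM, whose striatal sums were low. Without the library labelled KO a, 10 of 10 myelin markers, 5 of 9 astrocyte markers and 4 of 7 microglia markers fell, and every gene of these 3 lists had a negative log2 fold change. The microglia list summed to 131 to 182 FPKM in SVZ controls, 120.1 FPKM in the library labelled KO a and 94.8 and 102 FPKM in the others. With all libraries 0 genes of these 4 lists passed limma's adjusted threshold. Their part in the channel values was not tested.

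The members that rose in the SVZ without that library included Kcnip1, Kcng4, Kcne1l, Kcnk9 and Kcnu1. Kcnip1, a KChIP subunit known from interneurons, was at 10.3, 11.6 and 11.6 FPKM in controls, 12.7 FPKM in the library labelled KO a, and 18.9 and 17.7 FPKM in KO b and c (0.66, SE 0.11, limma adjusted p = 0.017; with all libraries 0.50, SE 0.15, adjusted p = 0.37). Kcnk9 was at 6.20, 8.84 and 6.76 FPKM, then 9.60 FPKM, then 12.6 and 12.8 FPKM (0.74, SE 0.15, limma adjusted p = 0.032; with all libraries 0.62, SE 0.16, adjusted p = 0.37). For both, the library labelled KO a lay above the controls and below the other KO libraries. Kcne1l was at 3.60, 6.80 and 5.39 FPKM, then 3.29 FPKM, then 12.1 and 11.4 FPKM (1.06, SE 0.21, limma adjusted p = 0.032; with all libraries 0.53, SE 0.41, adjusted p = 0.59). Here the library labelled KO a was below all controls. Kcng4 was at 1.55, 1.21 and 1.76 FPKM, then 1.95 FPKM, then 3.61 and 3.20 FPKM (0.82, SE 0.13, limma adjusted p = 0.017; with all libraries 0.62, SE 0.18, adjusted p = 0.37). Markers of GABAergic interneurons summed to 279 to 348 FPKM in SVZ controls, 369 FPKM in the library labelled KO a and 428 and 447 FPKM in the remaining KO libraries. Without the library labelled KO a, 1 of the 6 rose by limma and 2 had a negative log2 fold change. Hippocampal CA pyramidal markers summed to 38.9 to 57.1 FPKM, then 48.6 FPKM, then 77.8 and 81.1 FPKM. In the same setting 2 of these 6 rose by limma and 3 were negative. Dentate granule markers summed to 35.7 to 43.4 FPKM, then 42.5 FPKM, then 37.1 and 41.4 FPKM, and of 6 tested 2 rose and 3 were negative. With all libraries 0 genes of these lists passed, and their part in the channel values was not tested.

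Whether the KO effect differed between the tissues was tested in 1 model of the 4 groups. The difference, SVZ minus DG, passed the threshold for 1 of 68 members, against 0.0335% of all 14922 genes (0.0268% with the SVZ effect higher and 0.0067% with it lower). Its median over the members was 0.33, against -0.06 over all genes, and it was above 0 in 52 members (76.5%), against 41.7% of all genes. There were 20 members at an unadjusted limma p under 0.05 with the SVZ effect higher and 1 with it lower, 30.9% together, against 15.9% of all genes (5.39% and 10.6%). Without the library labelled KO a, the median over the members was 0.19, against -0.03 over all genes, and the difference was above 0 in 47 members (69.1%), against 46.1% of all genes. There were then 16 members at an unadjusted limma p under 0.05 with the SVZ effect higher and 2 with it lower, 26.5% together, against 18.4% of all genes (7.71% and 10.7%). In that setting 2 members passed, Kcnip1 (0.81, SE 0.12, limma adjusted p = 0.034) among them, against 0.429% of all genes (0.248% higher and 0.181% lower). With all libraries the difference of Kcnip1 was 0.65 (SE 0.18, limma adjusted p = 0.14). Markers of mature neurons also had medians of opposite sign in the 2 tissues. In the DG 12 of 12 were negative (median -0.67). In the SVZ 4 of 12 were negative, with a median of 0.11 with all libraries and 0.07 without the library labelled KO a. The part of neuronal content in the difference of the channel genes was not tested.

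Kcnc1, Kcnc2 and Kcnc4 had negative log2 fold changes in the DG, -0.41, -0.63 and -0.69, and positive ones in the SVZ, 0.24, 0.29 and 0.12 with all libraries and 0.11, 0.22 and 0.03 without the library labelled KO a. The differences of Kcnc1, Kcnc2 and Kcnc4 were 0.65 (SE 0.20), 0.92 (SE 0.31) and 0.82 (SE 0.32), with limma adjusted p of 0.17, 0.20 and 0.25, and were 0.51, 0.85 and 0.72 without the library labelled KO a. Of the 12 fits of the difference with 1 library left out, Kcnc2, Kcnj3 and Kcnj6 passed only in the fit without DG KO a. Their limma adjusted p was then 0.029, 0.036 and 0.041, and 0.20, 0.20 and 0.10 with all libraries. DG KO a had the highest DG KO level of each of these genes, and its Dpy30 level of 6.22 FPKM lay below every DG control. The share of all genes that passed in that fit is not given here. The groups of Kcnj6 were apart in both tissues in opposite directions, lower in KO in the DG and higher in the SVZ, where it was at 6.74, 5.91 and 5.47 FPKM in SVZ controls and 6.94, 8.61 and 7.88 FPKM in SVZ KO libraries (difference of 0.87, SE 0.19, limma adjusted p = 0.10; 0.94 and 0.065 without the library labelled KO a). By limma, the differences of Kcns1 (0.86, adjusted p = 0.12) and Kcnn1 (0.77, adjusted p = 0.12) had the same sign, and were 0.75 and 0.69 without the library labelled KO a. No member was separated in the same direction in both tissues with all libraries. The share of all genes separated in both tissues is not given here, so no conclusion is drawn from that count.

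**Figure D4:**
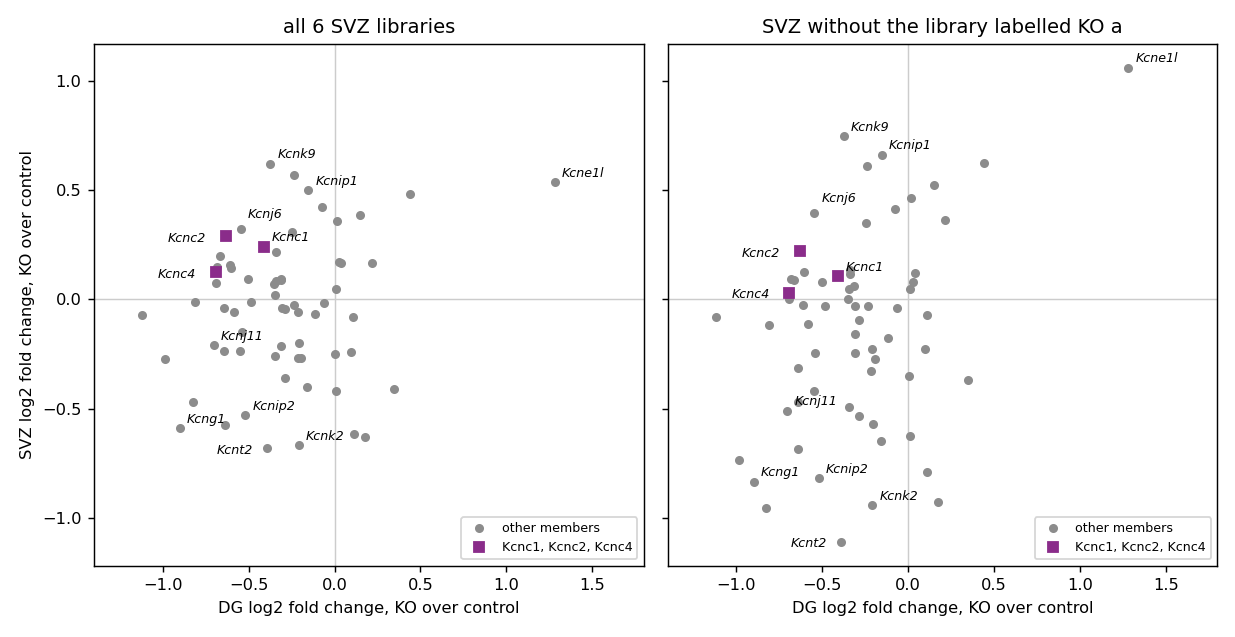
Log2 fold change in the DG (horizontal axis) against that in the SVZ (vertical axis) for members tested in both, with all SVZ libraries on the left and without the library labelled KO a on the right; squares mark Kcnc1, Kcnc2 and Kcnc4. The 3 squares lie left of 0 and above 0 in both panels, and Kcne1l lies farthest right at 1.28.

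Genes that work with these channels were mostly lower in the DG KO libraries too. Of 20 tested partner genes (auxiliary and clustering proteins, KATP receptors and the HCN channels, which carry the opposing inward current), 17 had a negative DG log2 fold change, against 34.7% of all genes. Their median was -0.23, and 0 passed limma's adjusted threshold. Lgi3, a secreted protein that organises Kv1 channels at axons, was at 11.4, 20.9 and 15.8 FPKM in DG controls and at 6.18, 4.14 and 3.33 FPKM in KO libraries (-1.61, SE 0.26, limma adjusted p = 0.054). Hcn2 was at 23.5, 26.9 and 26.5 FPKM against 14.0, 16.1 and 18.7 FPKM (-0.63, SE 0.12, limma adjusted p = 0.057). In both, no KO library reached the controls. The myelin marker sums were also lower in every DG KO library, at 133 to 138 FPKM against 247 to 2440 FPKM in DG controls. The part of myelin, neuronal or other cell content in the partner values was not tested. In the SVZ the partner median was -0.08, with 0 of 21 past the threshold. Without the library labelled KO a it was -0.14, and Adam23 (-0.65, limma adjusted p = 0.024) and Lgi3 (-0.56, adjusted p = 0.048) fell; with all libraries they stood at -0.42 (adjusted p = 0.42) and -0.31 (adjusted p = 0.54).

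Of 11 potassium pump and cotransporter genes, 9 were negative in the DG, against 34.7% of all genes, with a median of -0.12, and 0 passed. Atp1b1, a beta subunit of the sodium pump, was at 467, 457 and 486 FPKM in DG controls and at 397, 278 and 259 FPKM in KO libraries (-0.62, SE 0.17, limma adjusted p = 0.092), and at 502, 516 and 433 FPKM against 554, 522 and 545 FPKM in the SVZ (0.16, SE 0.12, limma adjusted p = 0.57; 0.15, SE 0.13, adjusted p = 0.52 without the library labelled KO a). Its groups were apart in both tissues, with lower KO values in the DG and higher ones in the SVZ. The part of cell type content in the pump and cotransporter values was not tested. In the SVZ 0 of 11 passed with all libraries, and 1, the cotransporter Slc12a2, fell (-0.97, limma adjusted p = 0.028) once the library labelled KO a was left out, from -0.70 (limma adjusted p = 0.37) with all libraries.

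The authors' deposited table of transcript comparisons held 160 transcripts of the members. In the DG, 44 of these had a p-value under 0.05 with KO lower and 2 with KO higher in the authors' deposited table, whereas over all 40483 transcripts there were 2178 lower and 3628 higher. In the SVZ the authors' deposited table held 8 lower and 14 higher member transcripts, against 1966 lower and 2111 higher over all transcripts. The authors' deposited table gave a step-up FDR at most 0.05 for 0 member transcripts in either tissue, with lowest values of 0.097 in the DG and 0.42 in the SVZ.

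The 2 named channels outside the rule mark other cells. Kcnj10, the inward rectifier of astrocytes, was at 12.8, 28.0 and 21.8 FPKM in DG controls and 10.1, 15.3 and 20.7 FPKM in KO libraries, and at 32.1 to 38.6 FPKM in SVZ controls, 31.1 FPKM in the library labelled KO a and 16.8 and 17.7 FPKM in the others. Kcnj13, a channel of the choroid plexus, was at 5.88 FPKM in DG KO b and 2.58 FPKM in DG control a, and under 1 FPKM in the other libraries. These are the DG libraries with the highest choroid plexus marker sums, 1996 and 626 FPKM.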

How the data were processed

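Per the labels' protocols, polyA+ RNA was selected from total RNA and made into libraries with a kit of Agilent. CASAVA 1.8.4, TopHat2 2.1.0 and Partek were used with GRCm38 (mm10), per the submitters' processing notes, which give no roles or annotation. The authors deposited FPKM per transcript, 40483 rows per tissue, in columns that name a group and no replicate, so a, b and c stand for the columns of a group as they come. They also deposited comparison tables of transcripts with a p-value, a step-up FDR and a signed fold change (control over KO, negative where KO was higher), which is treated as a score, per the file headers. All rows of both kinds joined on gene name and group means (relative tolerance 0.0001), and FPKM was summed to 17990 genes. The deposited values are named as TMM-scaled FPKM. Such FPKM still moves with the other RNA in a library, and no read counts are used here, so no count model was fitted.

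In each tissue, genes whose mean reached 0.5 FPKM were compared as log2(FPKM + 1), KO minus control, by the trend method of limma 3.58.1 (R 4.3.3). Benjamini-Hochberg adjustment ran over all genes tested, with a threshold of 0.05. The fit was tested on simulated data. This scale makes changes of low genes look smaller. A fold is a ratio of mean FPKM. Depth came from the steps of low FPKM values, so it includes the TMM scaling. The difference between tissues came from a model of 4 groups. Alternatives were other pseudocounts, filters, normalizations, the top transcript, a sex term, no trend, and each library left out.

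Members and lists were chosen with earlier results of these data known. Named members are those called, those with the smallest p in each comparison, the highest levels, the top of each subfamily, and those at the threshold or in Kcna clusters; other names were chosen after their values were seen. Promoter windows are RefSeq's on GRCm38.p6. Of the per-sample columns, 0 were not used. Results of 3 members and of 1 gene of the pump list are not reported here; the members and that gene count in the totals and are not drawn in the figures.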

Additional observations from a re-analysis of the deposited data

How the results depend on the processing

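No paired analysis was possible because the columns carry no replicate numbers. In the DG the count of members called was 1; it was 0 with a pseudocount of 0.1 FPKM, no filter, the top transcript, a sex term or no intensity trend, 2 with quantile normalization, and 0 to 1 when any 1 library was left out (1 without control b, then Kcng2 and not Kcnj11). The cause was not tested. Members with a negative DG log2 fold change numbered 47 (of 58 with a minimum of 2 FPKM) to 60, and their median stayed at -0.40 to -0.21. Median centring took the median of all genes in the DG from 0.09 to 0.01 and the negative members from 53 to 59. In the SVZ the count was 0 to 16 across left-out libraries, 16 without the library labelled KO a, and Dpy30 there went from -0.67 to -0.29. For the difference between tissues the count was 1; it was 0 with a pseudocount of 0.1 or 5 FPKM or the top transcript, and 0 to 5 across left-out libraries: 0 without DG KO b, DG KO c, any SVZ control, SVZ KO b or SVZ KO c, 2 without DG control b or the library labelled KO a, and 5 without DG KO a. For the fits with 1 library left out, the share of all genes that passed is given only without the library labelled KO a. The other counts therefore cannot be set against the change in calls over all genes. No named value changed sign past the threshold. Low values rest on few reads: at the lowest depth, 1 FPKM over 1 kb is 26.7 reads.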
